A study of Mus musculus with 16 samples.

Results

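Serpins and the other secreted protease inhibitors were followed in primary murine tracheal epithelial cells (MTECs) exposed to house dust mite (HDM). The genes were taken by symbol from the protein-coding genes of the annotation: every serpin of clades A to I, plus A2ml1, A2m, Slpi, Wfdc2, Spink5, Cst3 and Cst6. This gave 68 genes, 61 of them serpins, out of 21811 protein-coding genes. Of the 68, 33 had 10 or more counts in at least 2 of the 16 libraries and are described here, 26 of them serpins. The other 35 stayed below that level, 12 of them at 0 counts in every library.

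MTECs are airway epithelial cells taken from the trachea and grown on a porous insert with air above and medium below, so that they form a layered epithelium. The 8 groups were all combinations of sex, genotype (WT, or KO for LMAN1, a receptor that carries selected glycoproteins out of the endoplasmic reticulum) and exposure (naive, or HDM at 20 µg/ml overnight). The mice were littermates from heterozygous crosses on the C57BL/6J background, the cultures came from pooled tracheas, and the inserts were coated with a basement membrane laid down by 3T3 fibroblasts. Each group had 2 biological replicates, and the mRNA-enriched RNA of each was sequenced to between 21860698 and 43442188 counts assigned to genes. Ages of the mice are not given in the sources used here.

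Protease inhibitors keep enzymes that cut proteins from acting too long or in the wrong place. Serpins are suicide inhibitors: the protease cuts a bait loop and is then trapped by a large change in the serpin's shape. WAP-domain inhibitors (Slpi, Wfdc2) and cystatins (Cst3, Cst6) block the active site instead, and alpha-2-macroglobulin proteins (A2m, A2ml1) cage the protease. Several mite allergens are themselves cysteine or serine proteases, and the airway epithelium is the first surface they meet. The label "secreted" does not hold for all 33 genes by what is known of them: most clade B serpins act largely inside the cell, and Serpinh1 is a collagen chaperone that inhibits no protease.

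The labelled cell type was checked first. Krt5, a basal cell keratin, lay between 628 and 5868 CPM (each gene's share of a library's counts on a common scale, set by the trimmed mean of M values, TMM), and Foxj1, the master regulator of motile cilia, between 44.8 and 97.5 CPM. Scgb1a1, the defining club cell secretoglobin, did not exceed 3.75 CPM in any library. The secretory list as a whole was abundant, mostly through Cyp2f2 at 3754 to 18918 CPM. Lman1 itself lay between 101 and 144 CPM in the WT libraries. Among the 8 libraries labelled KO it was low in 3 (12.8 and 12.8 CPM in female naive cells, 14.2 CPM in 1 male naive library) and between 63.4 and 78.1 CPM in the other 5, each above 50% of the WT mean of 121 CPM. "KO" therefore stands for the label throughout. The female KO naive libraries stood at 10.6% of the WT mean and the female KO HDM libraries at 55.3% and 64.8%. This bears on each genotype difference, and equally on the HDM response of female KO and its interactions, whose compared groups were unlike in Lman1. The male KO naive libraries were unlike each other (14.2 and 63.4 CPM), and the male KO HDM libraries were at 65 and 66 CPM. The HDM response of male KO, its interaction and the sex difference in KO naive cultures carry the same limit.

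Cell type markers moved with HDM in the female cultures. The summed secretory list went from 16354–21470 CPM in female WT naive libraries to 3838–4703 CPM with HDM, and from 15438–19098 to 7542–8245 CPM in female KO. Cyp2f2 held most of it, at 16711 and 12611 CPM in naive and 4645 and 3754 CPM in HDM female WT libraries. Scgb3a1 went from 338 and 237 to 4.54 and 4.83 CPM there, and Reg3g from 4026 and 3165 to 46.6 and 72.4 CPM. The basal list went from 10473–11332 to 2116–4146 CPM in female WT, but from 10801–12105 to 10950–13788 CPM in female KO. The fibroblast list went from 564–1593 to 3687–6839 CPM in female WT and from 752–956 to 1122–1158 CPM in female KO. Most of that sum was Fn1 (fibronectin, which injured epithelium also makes), at 536 and 1045 CPM in naive and 3634 and 6234 CPM in HDM female WT libraries. In female WT all 8 secretory markers and 6 of 8 basal markers fell, and 4 of 10 fibroblast markers rose. In female KO 5 of 8 secretory markers and 1 of 8 basal markers fell, and 0 of 10 fibroblast markers were called. Squamous markers were at 650–943 and 424–548 CPM in female WT, and at 845–1055 and 1187–1533 CPM in female KO. Summed ciliated markers lay between 566 and 794 CPM in all libraries, but most of that was the tubulin gene Tubb4b, at 505 to 661 CPM. In female WT 4 of 7 ciliated markers fell. Tekt1 went from 2.72 and 4.34 to 0.0832 and 0.0947 CPM and Rsph1 from 11.5 and 13.7 to 3.04 and 3.46 CPM. Foxj1 was at 69.5 and 89.4 CPM without and 79.1 and 86.6 CPM with HDM. Endothelial markers lay at or below 2.29 CPM. Leukocyte markers went from 242–293 to 109–115 CPM in female WT, where 3 of 6 fell, and from 267–270 to 187–231 CPM in female KO, where 1 of 6 fell. In the male cultures the secretory list lay between 17487 and 27159 CPM and the fibroblast list between 349 and 760 CPM, naive and HDM alike. Fewer cells of a type and less RNA per cell cannot be told apart in bulk RNA, and the part of these shifts in the results below was not tested.

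**Figure D1:**
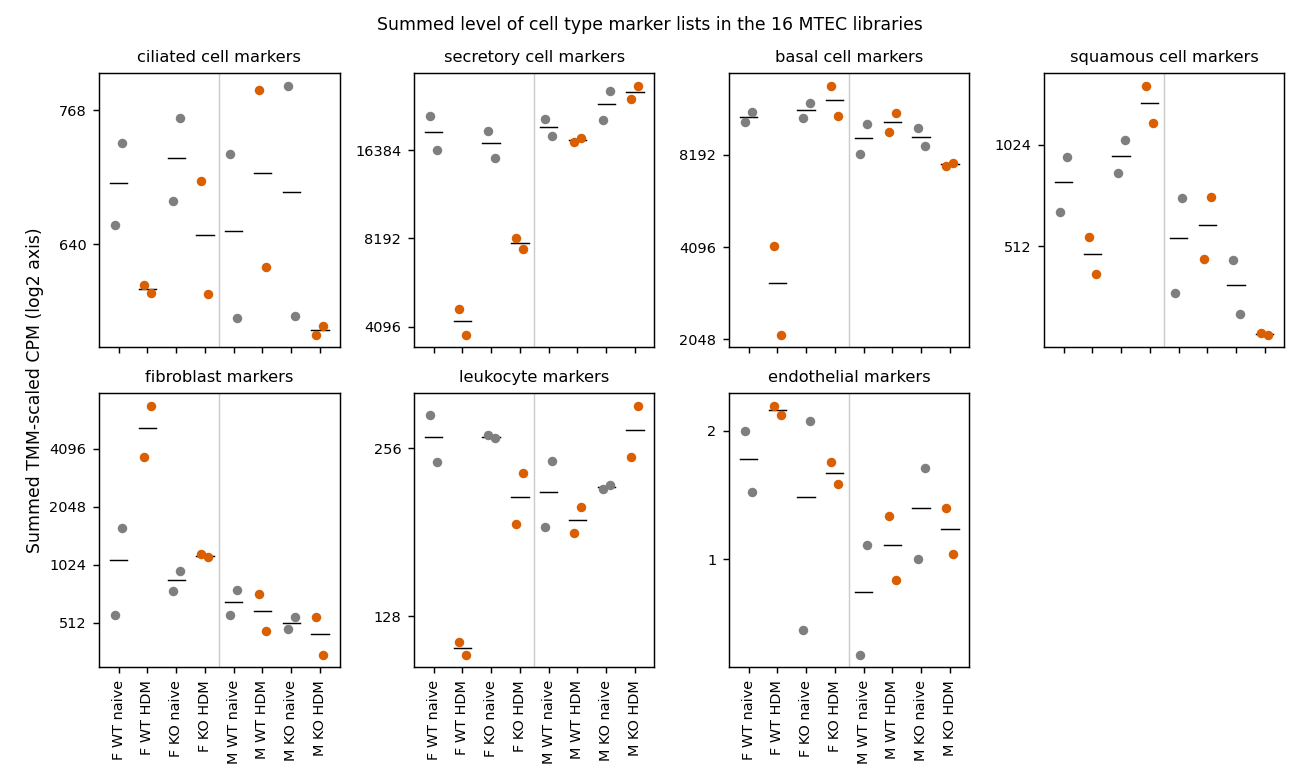
Summed TMM-scaled CPM (log2 axis) of each marker list, 1 panel per list, in the 8 groups (F female, M male, grey naive, orange HDM). Each point is a library and each bar the mean of 2. The secretory panel falls from 16354–21470 to 3838–4703 CPM in female WT, and the fibroblast panel climbs from 564–1593 to 3687–6839 CPM.

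Before HDM, the inhibitor repertoire of the epithelium was dominated by Wfdc2, a WAP-domain protein of airway secretions. Levels between genes were compared as CPM per kilobase of exon over the 8 naive libraries. Wfdc2 had a median of 1474 CPM per kb. It took between 67.5% and 82.5% of the summed CPM per kb of the inhibitor genes in the naive libraries. Over all 16 libraries its share lay between 59.3% and 84.3%. Next came Cst3 (cystatin C, an inhibitor of cysteine cathepsins) at 109, Serpinb11 at 87.8 and Serpinh1 at 85.8 CPM per kb. The naive ranges of these last 3 overlapped (96 to 115, 77.2 to 160 and 60.3 to 109), so their order is not fixed by these libraries.

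A second tier held epithelial and leukocyte-type inhibitors. The naive medians were 40.7 CPM per kb for Serpinb6b, 35.9 for Serpinb6a, 31.6 for Serpinb1a (an inhibitor of neutrophil elastase), 30.1 for A2ml1, 27.7 for Serpinb5 (maspin), 23.3 for Slpi and 21.1 for Serpinb9. Lower still were Serpinb2 at 10.1, Serpinb7 at 7.39, Serpine2 at 6.86, Serpinb8 at 5.98, Spink5 at 2.33, Serpinb9b at 2.25, Cst6 at 1.86 and Serpinf1 at 1.46 CPM per kb. A further 13 described genes were below 1 CPM per kb, among them the complement regulator Serping1 at 0.704. Of clade A, many members of which the liver makes for plasma, 4 genes of the chromosome 12 cluster and Serpina7 were among the described genes. Serpina9, a serpin known from germinal centre B cells, lay between 1.36 and 9.04 CPM over the 16 libraries and was called in no comparison.

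HDM exposure of female WT cultures changed many of these genes, in both directions. Of the 32 genes that passed the filter on low counts (Serpina7 did not), 16, or 50%, passed a Benjamini-Hochberg adjusted p of 0.05 in edgeR's quasi-likelihood test, and such genes are said to be called. Over all 15993 genes tested, 43.1% were called in the same comparison, so the share of inhibitor genes called was near the background. By direction, 11 of the 32 rose against 20.6% of all genes, and 5 fell against 22.4%. The median size of the log2 fold change, regardless of sign, was 0.97 for the inhibitor genes and 0.38 for all genes.

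The largest rise was in Cst6 (cystatin M/E, which inhibits cathepsin L, cathepsin V and legumain in stratified epithelia). Its level was 7.56 and 11.3 CPM in female WT naive libraries and 103 and 132 CPM with HDM, a log2 fold change of 3.63 ± 0.37 (SE, adjusted p = 2.26e-05). In female KO it went from 8.01 and 12 to 36.4 and 26.8 CPM, a log2 fold change of 1.66 ± 0.36 (adjusted p = 0.0133). The naive and HDM values did not overlap in either female genotype. All 8 male libraries lay between 4.16 and 12.8 CPM, with HDM and without.

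Cst3, the other cystatin, changed far less. Female WT libraries went from 139 and 132 to 149 and 183 CPM, a log2 fold change of 0.29 ± 0.10 that passed the threshold (adjusted p = 0.0409) but not without either naive library or HDM replicate 2 (0.32, 0.25 and 0.13). In female KO it was at 134 and 142 CPM without and 125 and 108 CPM with HDM (log2 fold change -0.25, adjusted p = 0.16).

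Among the clade B serpins that block granule and lysosomal proteases, 8 were tested, 4 rose and 1 fell in female WT. Serpinb9, the inhibitor of granzyme B, stood at 68 and 78.9 CPM in female WT naive libraries and at 467 and 408 CPM with HDM. This was a log2 fold change of 2.57 ± 0.15 (adjusted p = 5.12e-07), and in female KO the values were 67.4 and 80.7 against 173 and 169 CPM (1.21 ± 0.15, adjusted p = 0.00082). Both female genotypes separated completely by exposure, while all 8 male libraries lay between 57.9 and 94.4 CPM.

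Serpinb9b, a mouse paralog of Serpinb9, was at 6.43 and 5.75 CPM in naive and 37.1 and 48.9 CPM in HDM female WT libraries. The log2 fold change was 2.82 ± 0.41 (adjusted p = 0.000238). In female KO the values were 5.98 and 6.41 against 9.56 and 8.41 CPM, and the difference did not pass the test (0.54 ± 0.40, adjusted p = 0.443). Male libraries ranged from 6.74 to 17.4 CPM with wide gaps between replicates. Of the 50-base words of the Serpinb9b transcripts, 5.38% also occur in other genes, so a part of its reads could be shared.

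Serpinb6b, a mouse relative of the human cathepsin G inhibitor, was at 70.2 and 88.9 CPM before and 427 and 412 CPM after HDM in female WT. That is a log2 fold change of 2.40 ± 0.21 (adjusted p = 7.40e-06), with 81.8 and 110 against 205 and 189 CPM in female KO (1.04 ± 0.20, adjusted p = 0.00878). Serpinb6a rose less in female WT, from 189 and 201 to 262 and 297 CPM (0.52 ± 0.10, adjusted p = 0.00148). Its value is uncertain, because 25.1% of its 50-base words are shared, mostly with Nqo2, whose exons overlap it on the other strand, and the strand setting of the counting is not given in the sources used here.

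Serpinb1a moved the other way in female WT, from 68.9 and 69.8 to 45.4 and 33.1 CPM (log2 fold change -0.82 ± 0.19, adjusted p = 0.00433). Without HDM replicate 2 the value was -0.61 with an adjusted p of 0.052. Its paralogs Serpinb1b and Serpinb1c and the furin inhibitor Serpinb8 did not pass the test in female WT (0.27, 0.47 and -0.18 on the log2 scale).

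The clade B serpins of stratified epithelium went in opposite directions. Serpinb11 fell in female WT from 169 and 177 to 31.5 and 17.7 CPM (log2 fold change -2.81 ± 0.40, adjusted p = 0.000222). In female KO it was at 194 and 180 CPM without and 94.9 and 96.2 CPM with HDM, a difference that missed the threshold (-0.97 ± 0.37, adjusted p = 0.126). Male libraries ranged from 140 to 350 CPM.

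Serpinb3a, a squamous cell carcinoma antigen type inhibitor of serine and cysteine proteases, was rare. Its values were 0.654 and 1.57 CPM in naive and 0.0832 and 0.0474 CPM in HDM female WT libraries (log2 fold change -4.02 ± 0.80, adjusted p = 0.00187). In female KO it was at 0.883 and 1.49 against 0.767 and 0.788 CPM (-0.60, adjusted p = 0.539). A share of 15% of its 50-base words also occurs in other genes, most often in Serpinb3b. The female WT HDM libraries held 2 and 1 counts of Serpinb3a, so the size of its fall there rests on few reads.

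Serpinb7, an inhibitor expressed in skin and other stratified layers, rose in female WT from 11.6 and 16.5 to 32.6 and 22 CPM (0.95 ± 0.35, adjusted p = 0.0439). That call was lost on leaving out either naive library or HDM replicate 1 (adjusted p from 0.0571 to 0.251). Serpinb5 was at 63.6 and 87 CPM without and 80.6 and 59.4 CPM with HDM in female WT, with overlapping groups, and Serpinb12 did not exceed 1.17 CPM anywhere.

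Of the serpins of fibrinolysis and coagulation, 5 were tested and 2 rose in female WT. Serpine2 (protease nexin, which inhibits thrombin, urokinase and trypsin-like enzymes) was at 44.2 and 63.8 CPM in naive and 236 and 223 CPM in HDM libraries. The log2 fold change was 2.08 ± 0.37 (adjusted p = 0.000897), and in female KO 49.9 and 72.8 CPM stood against 190 and 170 CPM (1.55 ± 0.36, adjusted p = 0.0203). The groups were apart in both female genotypes, and the male libraries lay between 35.2 and 101 CPM.

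Serpinb2 (plasminogen activator inhibitor type 2) went from 14.3 and 30.2 to 68.8 and 44.2 CPM in female WT, a log2 fold change of 1.33 ± 0.41 (adjusted p = 0.0201). The call did not hold without naive replicate 1 or HDM replicate 1 (0.90 and 0.97). In female KO the 4 values were 21.5 and 30.7 against 69.3 and 64.1 CPM, as large a difference (1.35 ± 0.40) that missed the threshold at an adjusted p of 0.0555. A share of 10.4% of the 50-base words of Serpinb2 also occurs in other genes, most often in Serpinb10. The exons of Serpinb10 overlap it on the same strand, so a part of its reads could be shared. Serpini1 (neuroserpin) and Serpine3 stayed at or below 1.23 CPM.

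Serpinh1 (HSP47, the procollagen chaperone of the endoplasmic reticulum) rose in female WT from 205 and 258 to 533 and 624 CPM. The log2 fold change was 1.32 ± 0.27 (adjusted p = 0.00227), against 0.53 ± 0.27 (adjusted p = 0.236) in female KO. Fibroblasts express this gene strongly, and the fibroblast list, mostly Fn1, was highest in the same 2 libraries. Of the 10 fibroblast markers 4 rose in female WT. Twist1 was at 0.363 and 0.854 CPM without and 3.37 and 7.34 CPM with HDM, and Pdgfra at 1.02 and 2.2 against 3.58 and 11.8 CPM, while Col3a1 (6.79 and 120 against 17.1 and 290 CPM) and Col1a1 (9.12 and 249 against 3.12 and 47.1 CPM) differed mostly between replicates. Their part in the Serpinh1 result was not tested.

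Serpinf1 (pigment epithelium-derived factor, a secreted protein of mesenchymal cells) varied more between replicates than between groups. It was at 1.53 and 15.7 CPM in female WT naive and 3.91 and 13.7 CPM in female WT HDM libraries, and at 0.464 and 5.25 CPM in male WT naive. In each of these pairs the library with more Serpinf1 also had more Col1a1. Serping1 (C1 inhibitor, which restrains complement and kallikrein) was not called in female WT but fell in female KO from 1.31 and 1.18 to 0.363 and 0.286 CPM (-1.93 ± 0.37, adjusted p = 0.00753).

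The deepest fall of all the inhibitors was in A2ml1 (alpha-2-macroglobulin-like 1, a broad protease trap of keratinising epithelia). Female WT libraries went from 241 and 154 CPM to 3.95 and 4.12 CPM with HDM, a log2 fold change of -5.61 ± 0.76 (adjusted p = 0.000155). Female KO libraries went from 132 and 68.9 to 6.7 and 6.87 CPM (-3.88 ± 0.69, adjusted p = 0.0054). The male libraries stood far above the exposed female ones, from 107 to 939 CPM, and the 3 highest were a naive and both HDM libraries of male KO (850, 673 and 939 CPM).

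A2m, the classical macroglobulin, rested on few reads: 22 counts in female WT HDM replicate 2, 17 in male KO naive replicate 2, and 7 or fewer in each of the other 14 libraries. No fold is given for it. Serpina7, the thyroxine carrier, also reached 10 counts in just 2 libraries, with 21 in female WT HDM replicate 2 and 10 in male WT HDM replicate 2.

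Spink5 (LEKTI, the inhibitor of epidermal kallikreins) differed between the 2 female genotypes. In female WT it fell from 10.1 and 16.5 to 2.75 and 1.18 CPM (-2.74 ± 0.52, adjusted p = 0.00138). In female KO it was at 12.2 and 13.8 CPM without and 26.6 and 15.5 CPM with HDM (0.70 ± 0.45, adjusted p = 0.364). The difference between the 2 responses was 3.44 ± 0.69 on the log2 scale (adjusted p = 0.0112, interaction term of the same model).

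Slpi (the secretory leukocyte protease inhibitor, an elastase inhibitor of airway secretions) was at 41.8 and 40.5 CPM in naive and 60.3 and 103 CPM in HDM female WT libraries. The rise was 0.99 ± 0.26 on the log2 scale (adjusted p = 0.0103), and was no longer called without either naive library (1.01 and 0.96, adjusted p = 0.0524 and 0.0562) or HDM replicate 2 (0.55, adjusted p = 0.145). In female KO it was at 27.5 and 29.5 CPM without and 18.4 and 12.7 CPM with HDM (-0.88 ± 0.27, adjusted p = 0.0646). The responses of the 2 genotypes differed by -1.87 ± 0.38 (adjusted p = 0.0123). Wfdc2 was at 1734 and 1627 CPM without and 1570 and 1736 CPM with HDM in female WT, with overlapping values.

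**Figure D2:**
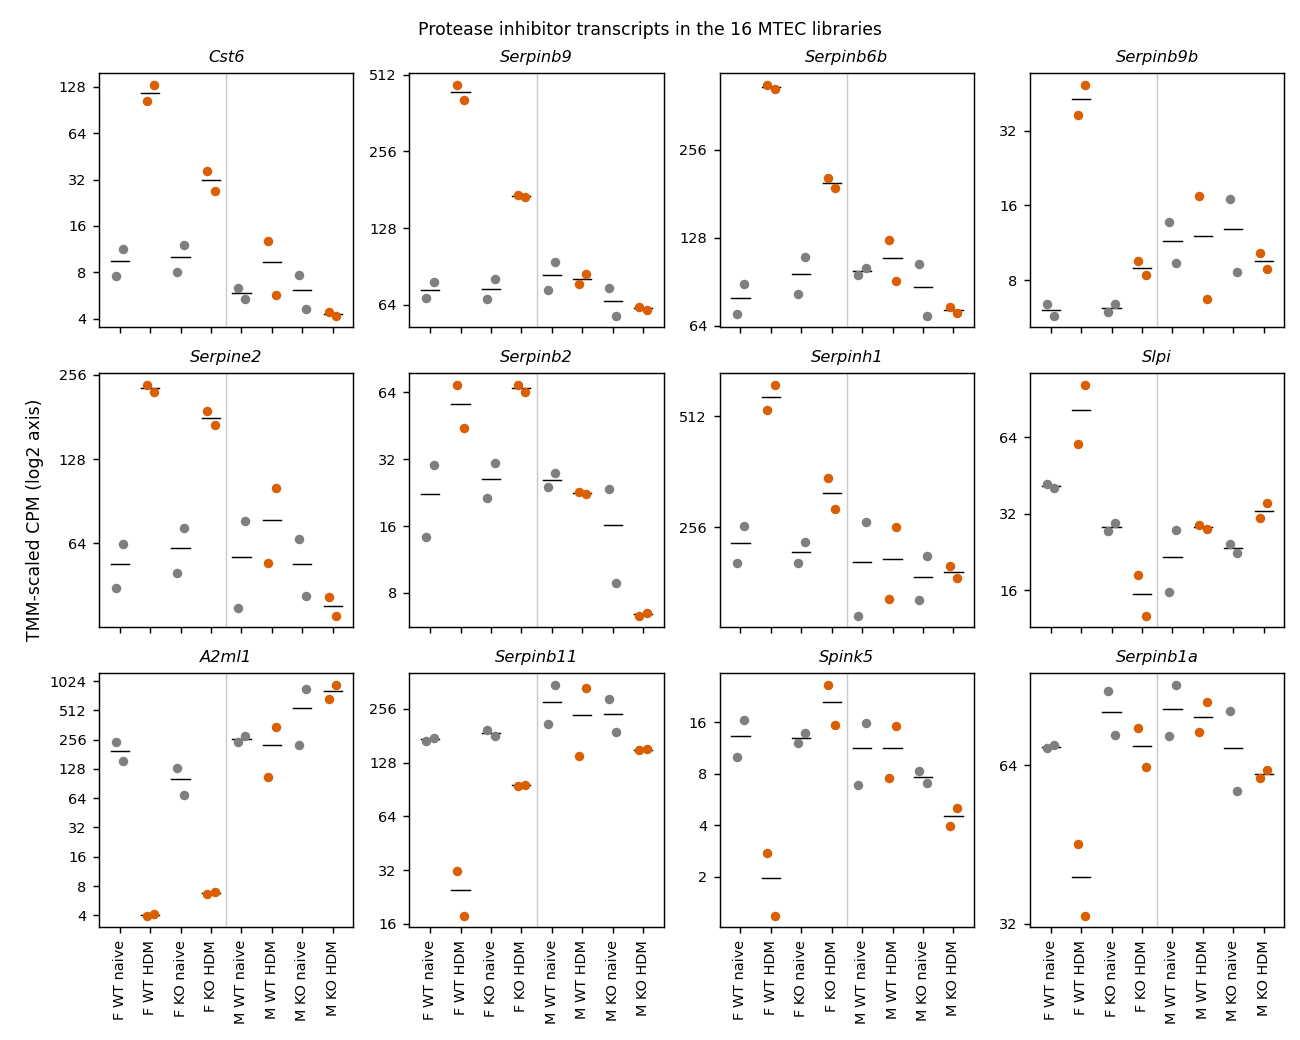
TMM-scaled CPM (log2 axis) of 12 protease inhibitor genes in the 8 groups (F female, M male, grey naive, orange HDM). Each point is a library and each bar the mean of 2. Cst6 climbs to 103 and 132 CPM and A2ml1 drops to 3.95 and 4.12 CPM in female WT HDM, whereas the 8 male libraries lie between 4.16 and 12.8 CPM for Cst6 and between 107 and 939 CPM for A2ml1.

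In female KO cultures HDM changed 6 of the 32 inhibitor genes, 18.8%, against 10.4% of all genes tested. Cst6, Serpine2, Serpinb9 and Serpinb6b rose, 4 genes against 4.63% of all genes, and A2ml1 and Serping1 fell, 2 genes against 5.77%. Serpinb9 was still called when any 1 of the 4 libraries was left out. The other 5 were each lost for at least 1 library: A2ml1 without HDM replicate 2 (-3.90), Cst6 without naive replicate 1 or HDM replicate 1 (1.40 and 1.42), Serpinb6b without naive replicate 1 or HDM replicate 2 (0.84 and 1.09), Serping1 without the same pair (-1.85 and -1.77), and Serpine2 without any of the 4 (1.31 to 1.85). The count ranged from 2 to 5 over these fits. Fitted on the 4 compared libraries alone the count was 14, against 18.7% of all genes in that fit.

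In male cultures no inhibitor gene passed the test, in WT or in KO. None of the 15993 genes did (0%). Deviations of same-numbered naive and HDM libraries correlated at 0.61 in male WT and at -0.0743 in male KO. The labels do not say that they share an animal, and the model does not pair them. Differences shared by such pairs therefore count as spread, and pairing within male WT was not tested. The lack of calls does not show that male cultures did not respond. The 2 male KO naive libraries were unlike in Lman1 (14.2 and 63.4 CPM) and in A2ml1 (225 and 850 CPM). Replicate 2 lay near the male KO HDM libraries in both genes (65 and 66 CPM, 673 and 939 CPM). The part of this in the lack of calls in male KO was not tested. At an unadjusted p under 0.05 there was 1 inhibitor gene in male WT and 2 in male KO, against 4.16% and 5.36% of all genes, so these counts were near the background. DESeq2 called 1 gene of any kind in each male genotype (0.0034% of the 29397 genes with any count). Serpina3g, an intracellular serpin known from lymphocytes, was the gene with an unadjusted p under 0.05 in both: it went from 1.06 and 0.505 to 1.89 and 4.14 CPM in male WT and from 0.517 and 0.464 to 1.53 and 1.96 CPM in male KO. The gene was picked by these unadjusted p-values, so the gap between its values adds no support. Serpinb2, picked in the same way, was the other in male KO, with 23.6 and 8.88 CPM without and 6.31 and 6.5 CPM with HDM.

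**Figure D3:**
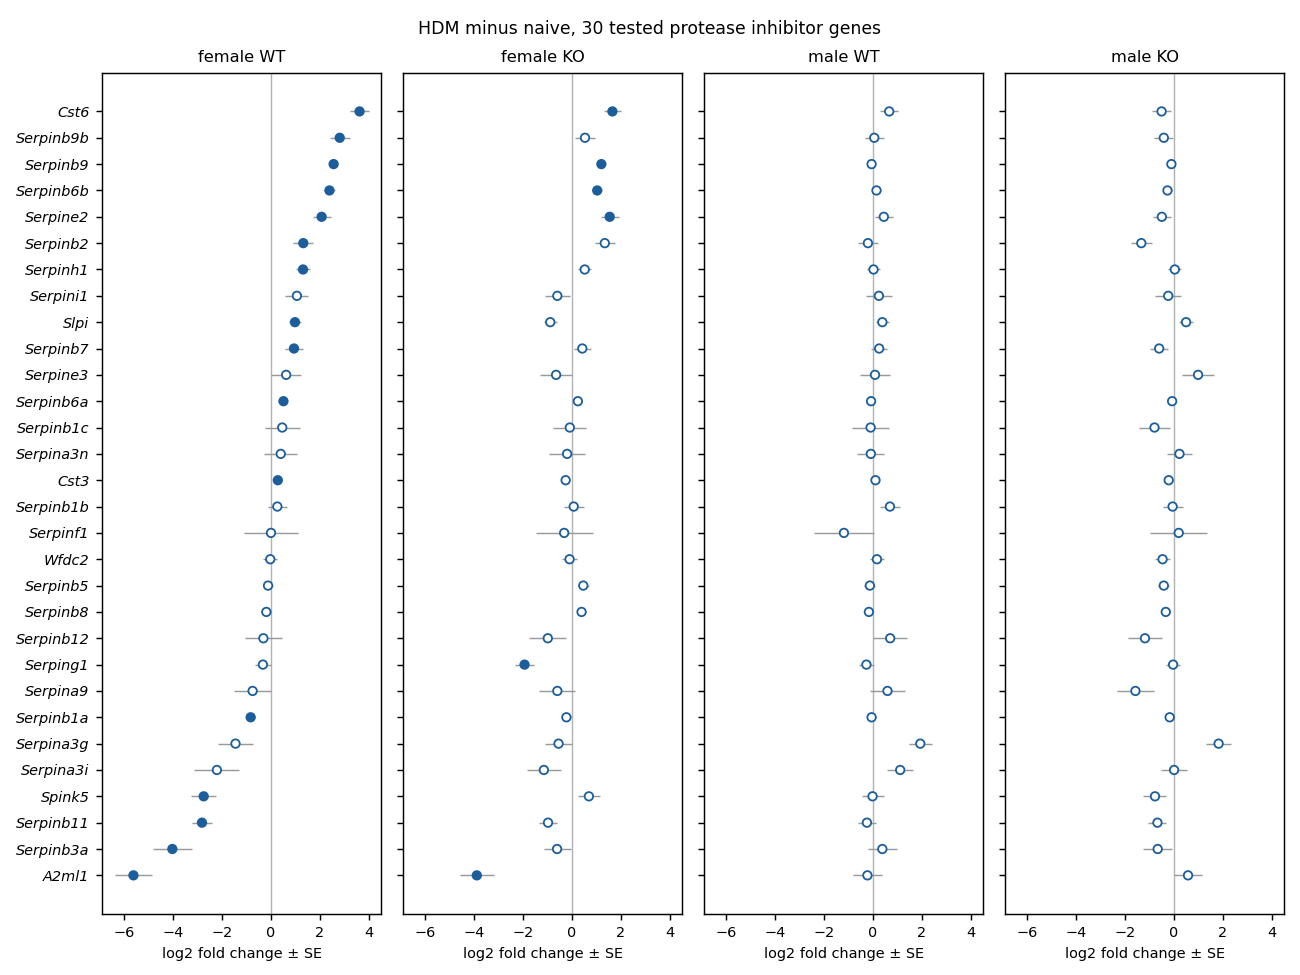
Log2 fold change (HDM minus naive) of 30 of the 32 tested inhibitor genes with its standard error (2 are not shown, among them A2m, which had few reads), in female WT, female KO, male WT and male KO; filled points passed an adjusted p of 0.05. There are 16 filled points in female WT, 6 in female KO and none in the male panels.

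The female and male responses to HDM were compared in the same model. In WT the response differed for 13 of 32 inhibitor genes, against 24.2% of all genes tested, and in KO for 5, against 3.56%. The 5 in KO were A2ml1, Cst6, Serpinb2, Serpinb6b and Serpinb9, and all but Serpinb2 were also among the 13 in WT. The KO count fell to 0 without male KO HDM replicate 2 or without female KO naive replicate 1. It was 1 without male KO naive replicate 1, male KO HDM replicate 1 or either female KO HDM library, and 3 without female KO naive replicate 2. The WT count was lowest, at 7, without female WT HDM replicate 2, and was 8 without female WT naive replicate 1.

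Under HDM itself, male and female WT cultures differed in 18 of the 32 genes, against 41.6% of all genes. Of these, 8 were higher in males (21.3% of all genes) and 10 were lower (20.3%). The genes higher in males were led by A2ml1 (107 and 342 CPM in male, 3.95 and 4.12 CPM in female; log2 difference 5.80 ± 0.77, adjusted p = 0.000131). Serpina3g followed, with 1.89 and 4.14 CPM in male and 0.125 and 0.142 CPM in female libraries (4.46 ± 0.63, adjusted p = 0.000203). Its neighbour Serpina3i was at 0.914 and 0.834 against 0.0416 and 0.0474 CPM (4.18 ± 0.79). The female libraries held 3 and 3 counts of Serpina3g and 1 and 1 of Serpina3i, so the size of both differences rests on few reads. Reads of this pair may be shared, since 15.5% and 15.9% of their 50-base words occur in other genes.

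Serpinb3a (3.32), Serpinb11 (3.26), Spink5 (2.51), Serping1 (1.36) and Serpinb1a (1.01) were the other 5 that were higher in males on the log2 scale. Serpinb3a had 2 and 1 counts in the female libraries. The 10 that were lower in males were Cst6 (-3.66), Serpinb9 (-2.44), Serpinb6b (-1.95), Serpinb9b (-1.83), Serpine2 (-1.56), Slpi (-1.52), Serpinh1 (-1.46), Serpinb2 (-1.33), Serpini1 (-1.32) and Serpinb6a (-0.58). Of the 18, 14 were called whichever library was left out, and Serpinb2, Serpinb3a, Serping1 and Serpini1 were not.

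Under HDM in KO cultures, 15 of 32 genes differed by sex, against 25.3% of all genes, 6 higher in males (12.9%) and 9 lower (12.4%). A2ml1 had the largest difference, with 673 and 939 CPM in male and 6.7 and 6.87 CPM in female libraries (6.89 ± 0.77, adjusted p = 0.000158). Serpina3n, an antichymotrypsin of acute phase responses, was at 1.28 and 2.1 CPM in male and 0.161 and 0.251 CPM in female libraries (3.00 ± 0.65, adjusted p = 0.0062). Serping1 was 2.93 higher in males on the log2 scale, and Serpina3g (2.27), Serpina3i (2.09) and Slpi (1.09) were higher as well. The female libraries held few reads of several of these: 4 and 7 counts of Serpina3n, 9 and 8 of Serping1, 8 and 11 of Serpina3g, and 2 and 5 of Serpina3i. The genes lower in males were Serpinb2 (-3.38), Cst6 (-2.88), Serpine2 (-2.24), Spink5 (-2.22), Serpinb7 (-1.84), Serpinb9 (-1.46), Serpinb6b (-1.44), Serpinb5 (-1.11) and Serpinb6a (-0.38). Of the 15, 9 were called whichever library was left out, and Serpina3g, Serpina3i, Serpina3n, Serpinb6a, Slpi and Spink5 were not.

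Slpi and Spink5 had opposite signs in the 2 genotypes. Slpi was at 29 and 27.8 CPM in male against 60.3 and 103 CPM in female WT HDM libraries, but at 30.7 and 35.2 against 18.4 and 12.7 CPM in KO. Spink5 was at 7.53 and 15.2 against 2.75 and 1.18 CPM in WT, and at 3.96 and 5.06 against 26.6 and 15.5 CPM in KO. Each sign change came mostly from the female libraries. In KO both calls were lost on leaving out either of 2 libraries: male HDM replicate 2 or female HDM replicate 2 for Slpi (0.99 and 0.84), and male or female HDM replicate 1 for Spink5 (-2.06 and -1.77).

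In naive cultures no inhibitor gene differed by sex. Over all genes, 0.1% were called between the sexes in WT naive and 0.188% in KO naive cultures. At an unadjusted p under 0.05 there were 6 inhibitor genes in each genotype, against 12.3% of all genes in WT and 9.91% in KO. DESeq2 called 1 inhibitor gene in WT and 2 in KO, against 0.657% and 0.714% of the 29397 genes with any count. That set also holds rare genes that the edgeR filter removes, so its shares are not on the scale of the edgeR shares. Serping1, not called by edgeR in either genotype, had values of 2.88 and 2.09 CPM in male and 1.05 and 0.967 CPM in female WT naive libraries. In KO naive libraries the values were 1.96 and 3.11 against 1.31 and 1.18 CPM.

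**Figure D4:**
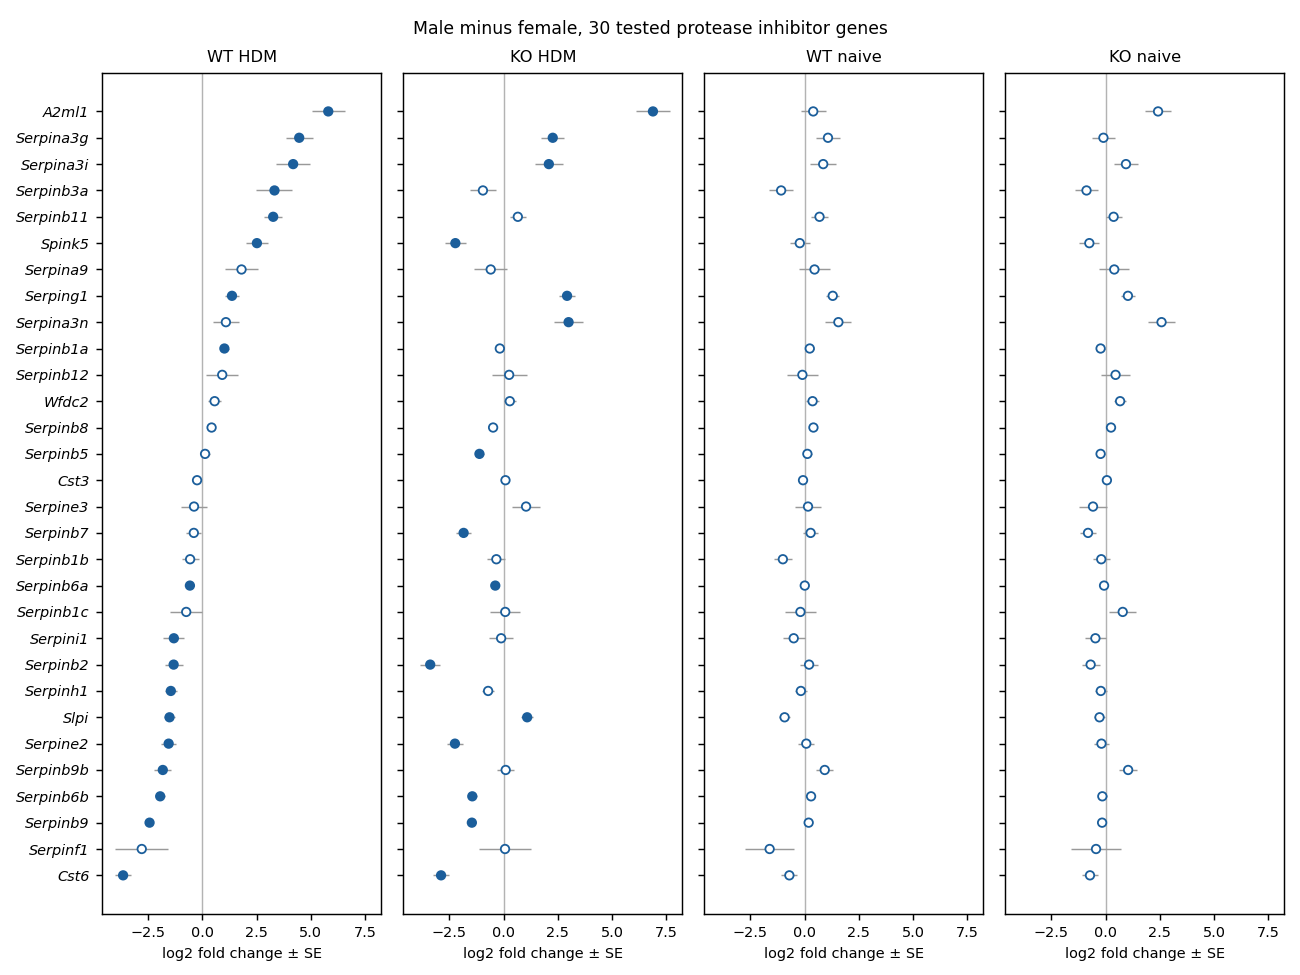
Log2 difference (male minus female) of 30 of the 32 tested inhibitor genes with its standard error (2 are not shown, among them A2m, which had few reads), in WT HDM, KO HDM, WT naive and KO naive cultures; filled points passed an adjusted p of 0.05. There are 18 filled points in WT HDM, 15 in KO HDM and none in the naive panels.

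The genotypes were then compared within each sex and exposure. In female naive, male naive and male HDM cultures no inhibitor gene was called, and 0% of all genes were. DESeq2 called 3 inhibitor genes in male HDM cultures, against 1.73% of the 29397 genes with any count. At an unadjusted p under 0.05 in edgeR there were 0, 1 and 10 inhibitor genes, in that order, against 1.27%, 5.42% and 18.1% of all genes. The 10 in male HDM cultures included Serpinb7, with 17.3 and 24 CPM in WT and 7.53 and 6.37 CPM in KO (log2 difference -1.57), and Serpinb2, with 22.8 and 22.3 against 6.31 and 6.5 CPM (-1.81). Both genes were picked by these unadjusted p-values, so the gaps between their values add no support.

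In female HDM cultures 15 of 32 genes differed between WT and KO, against 29.2% of all genes, 6 higher in KO (14.9%) and 9 lower (14.3%). Slpi was 2.40 ± 0.28 lower on the log2 scale (adjusted p = 0.000207) and Spink5 3.40 ± 0.53 higher (adjusted p = 0.000992). Serpinb9b (-2.26), Cst6 (-1.89), Serpinb9 (-1.36) and Serpinb6b (-1.09) were lower in KO too. These 6 genes were called whichever library was left out. The other 9 were not: Serpinb3a (3.47), Serpinb11 (1.95), Serpinb1a (0.82), Serpinb5 (0.62) and Serpinb8 (0.53) were higher, and Serping1 (-1.30), Serpinh1 (-0.86), Cst3 (-0.51) and A2m were lower, A2m on the 22 counts of a single library. Serpinb3a had 2 and 1 counts in the WT libraries. The count was 6 without female WT HDM replicate 2 and 9 without either female KO HDM library. The HDM responses of the 2 female genotypes differed for 8 genes, against 11.2% of all genes, and this count lay between 2 and 10 when a library was left out. It was 2 without female WT naive replicate 1, female KO naive replicate 2 or female KO HDM replicate 2, 3 without female WT HDM replicate 2, and 5 without female WT naive replicate 2 or female KO naive replicate 1.

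Most of the described serpins sit in 3 gene clusters. On chromosome 1 (GRCm38, chr1:106861173-107610484) a stretch of 749.3 kb holds 11 clade B serpins, 7 of them described: Serpinb5, Serpinb12, Serpinb3a, Serpinb11, Serpinb7, Serpinb2 and Serpinb8. On chromosome 13 (chr13:32842092-34002794) 15 lie within 1161 kb, and Serpinb1a, Serpinb1b, Serpinb1c, Serpinb6a, Serpinb6b, Serpinb9 and Serpinb9b are described. On chromosome 12 (chr12:103614786-104414329) 23 clade A serpins lie within 799.5 kb, with Serpina9, Serpina3g, Serpina3i and Serpina3n described. Neighbours did not move as a block: in female WT with HDM, Serpinb11 and Serpinb3a fell on chromosome 1 while Serpinb2 and Serpinb7 rose, and on chromosome 13 Serpinb1a fell while Serpinb9, Serpinb9b, Serpinb6b and Serpinb6a rose.

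The sequences before the transcription starts of these genes were searched for 4 factor motifs, chosen with the expression results known. RefSeq windows of 250 bases before the start (GRCm38.p6) were matched for 26 of the 33 genes. Several genes have more than a single window, and a gene was counted if any of its windows held a motif. The shares of all windows count each window by itself, so the figures are not on the same footing. A loose form of the AP-1 motif, TGANTCA with any base in the middle, was read on either strand. It occurred in 6 of the 26 genes, against 6.75% of all 32851 windows. The classical site has G or C in the middle. Of the 26 genes just Serpinb7 and Serpinb8 held that form, against 4.46% of all windows. All 6 genes with the loose form lie in the chromosome 1 cluster, where just Serpinb3a lacked it. None of the 6 matched genes on chromosome 13 or the 3 on chromosome 12 held it. The stretches of 20 bases either side are shown because they carry this positional pattern of the loose form. Each runs 5′ to 3′ on the strand of its gene with the TGANTCA letters in capitals:

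Serpinb5 (chr1:106861015-106861061, + strand): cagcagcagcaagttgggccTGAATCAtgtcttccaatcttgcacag
Serpinb12 (chr1:106934384-106934430, + strand): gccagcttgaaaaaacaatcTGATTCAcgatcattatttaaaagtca
Serpinb11, upstream match (chr1:107362113-107362159, + strand): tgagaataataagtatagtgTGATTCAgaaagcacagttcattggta
Serpinb11, downstream match (chr1:107362218-107362264, + strand): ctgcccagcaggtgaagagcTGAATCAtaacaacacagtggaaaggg
Serpinb7 (chr1:107422624-107422670, + strand): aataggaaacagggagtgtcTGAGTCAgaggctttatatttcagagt
Serpinb2 (chr1:107511309-107511355, + strand): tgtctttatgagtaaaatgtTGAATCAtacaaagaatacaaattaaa
Serpinb8 (chr1:107589963-107590005, + strand): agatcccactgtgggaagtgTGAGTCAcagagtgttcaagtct

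Serpinb7 and Serpinb8 hold the classical letters TGAGTCA, and the others have A or T in the middle. The capitals begin 45 bases before the start in Serpinb7 and in Serpinb12, 23 in Serpinb8, 140 in Serpinb5, 94 in Serpinb2, and 181 and 76 in Serpinb11. A further annotated start of Serpinb2 puts the same match 181 bases before it, and the window of a further Serpinb12 start lacks the letters. The Serpinb8 stretch ends at the last base before the start and is therefore shorter. The genes that hold the letters fell (Serpinb11), rose (Serpinb2, Serpinb7) or were not called (Serpinb5, Serpinb8, Serpinb12) in female WT with HDM. For comparison, the window of Serpinb9, which rose in both female genotypes, holds none of the 4 motifs:

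Serpinb9 (chr13:33004291-33004540, + strand): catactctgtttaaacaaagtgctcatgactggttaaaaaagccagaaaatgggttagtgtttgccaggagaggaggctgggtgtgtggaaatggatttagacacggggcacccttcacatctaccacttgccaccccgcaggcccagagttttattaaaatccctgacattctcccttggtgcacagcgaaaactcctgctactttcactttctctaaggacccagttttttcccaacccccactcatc

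The other motifs were spread over the clusters and other genes. The NF-kB motif was in 3 of the 26 (Serpina3g, Serpina3i and Serpinh1) against 7.25% of all windows. The STAT6 letters, TTC and GAA with 4 bases of any kind between them, were in 3 (Serpina3i, Serpinb1b and Serpinb7) against 5.85%. The TEAD letters GGAATG were in 6 (Cst3, Serpina3i, Serpina7, Serpinb12, Serpinb1b and Serpinb6a) against 12.6%. A match describes the letters in the window and not a bound site.

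A separate list of 51 proteases and protease receptors was also examined, of which 36 were tested. It was not restricted to enzymes that these inhibitors block. In female WT 12 rose and 10 fell with HDM, where 20.6% of all genes rose and 22.4% fell. In female KO 0 rose and 5 fell, where 4.63% of all genes rose and 5.77% fell. Among the called genes, 3 membrane-anchored serine proteases fell: Tmprss4 from 66.8 and 65.8 to 4.62 and 3.5 CPM (log2 fold change -4.02), Tmprss13 from 20.6 and 19.6 to 4.74 and 3.22 CPM (-2.33), and Tmprss11d, the airway trypsin-like protease, from 3.85 and 5.46 to 0.416 and 0.332 CPM (-3.62). The lysosomal aspartic protease Ctsd rose from 1014 and 1076 to 2453 and 2938 CPM (1.37), and the kallikrein Klk8 from 0.799 and 0.832 to 6.24 and 8.15 CPM (3.13).

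Of 43 further protease inhibitors outside the symbol rule, 15 were tested, and in female WT 2 rose and 3 fell, where 43.1% of all genes were called. Wfdc1, a WAP-domain protein, fell from 49.7 and 38 to 0.916 and 1.14 CPM (-5.42), and in female KO from 44.9 and 38.7 to 7.83 and 9.34 CPM (-2.28). The Kunitz inhibitors of matriptase and hepsin moved little and in opposite directions in female WT, Spint1 by -0.27 and Spint2 by 0.37 on the log2 scale. In male cultures 0 genes of either list were called.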

How the data were processed

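RNA of 16 MTEC cultures was sequenced after mRNA enrichment and random priming. The authors deposited raw counts, whole numbers per Ensembl gene without normalization. The submitters' processing notes name Trimmomatic 0.36, STAR 2.5.2b, featureCounts of Subread 1.5.2, DESeq2 and GRCm38; annotation release and strand setting are not given in the sources used here. Identifiers were matched to GENCODE M21 (49056 matched; 259 unmatched, holding 0.01062% of counts). No pair of libraries held identical counts (0 pairs).

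Genes passing edgeR's filterByExpr (15993) were fitted with edgeR 4.0.16 (R 4.3.3), by quasi-likelihood on 8 group means with TMM scaling, and tested in 15 contrasts with Benjamini-Hochberg adjustment over all genes within each contrast and a threshold of 0.05. The scripts were tested on simulated data. Alternatives were DESeq2 1.42.0, upper-quartile scaling, no filter, a minimum of 10 counts in every library, the compared libraries alone, a replicate block and leaving out each library. With 2 replicates per group, p-values measure the spread between these cultures, which came from pooled tracheas. Each SE was derived from the test, as the size of the log2 fold change over the square root of the quasi-likelihood F statistic.

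The inhibitor genes and all lists were chosen with earlier results of these data known. Of the 33 described genes, 1 is not reported here by name; the rule for named genes covered 21 (15 listed genes plus those with the largest changes); for the other lists it names called genes only. Shared 50-base words were counted over all annotated transcripts. Protein sequences were not used here.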

Additional observations from a re-analysis of the deposited data

Results flagged for a closer look

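The results below are differences between 2 responses to HDM that passed an adjusted p of 0.05 by edgeR's quasi-likelihood test of the interaction term, given as log2 values. Each group has 2 libraries, so a single culture can carry much of a value.

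The male minus female response in WT was above 0 for A2ml1 (5.39), Serpinb3a (4.40), Serpina3g (3.38), Serpina3i (3.32), Spink5 (2.73) and Serpinb11 (2.57). It was below 0 for Cst6 (-2.96), Serpinb9b (-2.76), Serpinb9 (-2.62), Serpinb6b (-2.24), Serpine2 (-1.64), Serpinh1 (-1.29) and Serpinb6a (-0.58). Of these 13, A2ml1, Cst6, Serpinb11, Serpinb3a, Serpinb6b, Serpinb9 and Serpinb9b were called whichever library was left out. Few reads lay behind 3 of the values: the female WT HDM libraries held 3 and 3 counts of Serpina3g, 2 and 1 of Serpinb3a, and 1 and 1 of Serpina3i. In KO the male minus female response was 4.47 for A2ml1, -2.69 for Serpinb2, -2.16 for Cst6, -1.30 for Serpinb9 and -1.29 for Serpinb6b, and each of these 5 was lost without at least 1 library.

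Among females, the KO minus WT response was 3.44 for Spink5 and 1.84 for Serpinb11. It was -2.29 for Serpinb9b, -1.97 for Cst6, -1.87 for Slpi, -1.37 for Serpinb9, -1.36 for Serpinb6b and -0.54 for Cst3. Serpinb9 was the 1 gene of these 8 still called whichever library was left out.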

How the results depend on the processing

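Counts below are inhibitor genes called, with the share of all genes called in that fit. With no filter on low counts, 29397 genes entered the fit. The HDM response then had 4 in male WT (0.507%; 0 with the filter), 15 in female KO (9.24%; 6) and 13 in male KO (2.4%; 0). The sex difference had 8 in WT naive (2.19%; 0) and 9 in KO naive (2.92%; 0), and the genotype difference 3 in female naive (0.459%; 0), 3 in male naive (0.333%; 0) and 15 in male HDM (6.45%; 0). The interactions had 16 for sex by HDM in KO (6.73%; 5) and 16 for genotype by HDM in females (10.3%; 8). In that unfiltered fit A2ml1 in male KO had an adjusted p of 1.55e-05 at a log2 fold change of 0.56, with naive replicates at 225 and 850 CPM. DESeq2, also over 29397 genes, called 1 and 2 by sex in WT and KO naive (0 by edgeR). It called 3 by genotype in male HDM (0 by edgeR) and 8 for sex by HDM in KO (3.95%, against 5 by edgeR). The compared libraries alone gave 14 in the female KO response (6 in the main fit). Leaving out 1 library gave 2 to 5 (HDM, female KO), 6 to 18 (genotype, female HDM), 7 to 14 (sex by HDM, WT), 0 to 8 (sex by HDM, KO) and 2 to 10 (genotype by HDM, female). Upper-quartile scaling and a minimum of 10 counts in every library left every count for which they gave a value within 1.5 times. Signs changed for female fold changes that were not called: Serpinf1 in female WT without the filter (-0.02), and on leaving out 1 library Wfdc2 (-0.10 to 0.04 in female WT, -0.23 to 0.03 in female KO), Serpinb5 (-0.35 to 0.13) in female WT, and Serpinf1 (-1.16 to 2.52 in female WT, -0.86 to 0.09 in female KO). For the male HDM responses, none of them called with the filter, 39 of 394 values changed sign, all on leaving out 1 library. The cause was not tested. The labels do not say that a replicate number marks a shared animal or batch. With the replicate block the counts were 17 (HDM, female WT), 16 (sex, KO HDM), 14 (genotype, female HDM) and 14 (sex by HDM, WT), and the other 11 were as without it. Deviations of same-numbered libraries correlated between -0.29 and 0.61 over the 12 comparisons of 2 groups. The highest values were 0.61 for the HDM response in male WT and 0.514 for the genotype difference in male naive cultures. The block is a single term shared by all 8 groups, so pairing within a sex and genotype was not tested. A group from which a library is left out holds a single library, assumed to vary like the others.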

Other observations

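Serpinb9c, a further Serpinb9 paralog that did not reach 10 counts in any library, had 9 and 8 counts in the female WT HDM libraries, 4 in female KO HDM replicate 1 and 0 in the other 13. It passed the filter on low counts through the female WT HDM libraries, the group in which it was highest. Its call between naive and HDM female WT cultures drew on the same counts and adds no support. No fold is given, since the naive group was at 0.

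Muc5ac and Clca1, a gel-forming mucin and a goblet cell protein that mark type 2 airway responses, fell in female WT with HDM, from 2.8 and 2.11 to 0.416 and 0.189 CPM and from 2.65 and 3.82 to 0.832 and 0.568 CPM. In female KO Muc5ac went from 2.88 and 2.32 to 0.525 and 0.609 CPM, and Clca1 was at 2.54 and 3.62 CPM without and 2.3 and 2.51 CPM with HDM.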
